A study of Mus musculus with 12 samples.

Results

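NF-kappaB is a family of paired transcription factors that carry activating signals to the nucleus of lymphocytes, and the RNA of its subunits and inhibitors was followed here in mouse CD8+ T cells. The genes were the subunits Rel, Rela, Relb, Nfkb1 and Nfkb2, the inhibitors Nfkbia, Nfkbib, Nfkbie and Nfkbiz, and the terminator Tnfaip3, each taken wherever the probe annotation gave exactly 1 gene symbol. Of these 10 named genes 9 were found, among 22180 genes measured the same way, each by 1 row of the table. Nfkb1 is not analysed here.

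The subunits Rel, Rela and Relb carry their own transactivation domain, whereas the product of Nfkb2 is made as a long precursor that can itself hold partners back until it is processed. In unstimulated cells, inhibitors of the IkappaB family keep the dimers in the cytoplasm. Engagement of the T cell receptor activates the IkappaB kinase complex through protein kinase C theta and the paracaspase MALT1, the inhibitors are degraded and the dimers enter the nucleus. Several members of the family are themselves transcribed under NF-kappaB, which closes feedback loops. The arrays measured RNA and not the degradation or the location of these proteins.

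The cells were CD8+ T cells from spleens of C57BL/6 mice, enriched by removing other cells with an isolation kit, and were held for 6 h. There were 4 groups of 3 arrays each: anti-CD3 with IFN-4a, anti-CD3 without interferon, PBS with IFN-4a, and PBS. Anti-CD3 is an antibody against the T cell receptor complex, PBS is the buffer used as mock treatment, and IFN-4a is the type I interferon that was tested. The labels give the cells no other treatment and the mice no other allele. They do not say whether the numbered replicates were separate mice or cultures, so every p-value here reflects the spread between these arrays, which may be technical.

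A value is the log signal of a gene, taken as log2, minus that gene's median over the 12 arrays, as the authors deposited it. It can be compared between arrays for 1 gene but not between genes, and it gives no absolute level. The decimal steps of the values place all 9 genes at 8 or above on the original log scale on all 12 arrays. Arrays of the same group correlated at 0.608 or more across rows, and arrays of different groups at 0.527 or less. The interferon-stimulated gene Ifit1 was 3.88 higher on the log2 scale with IFN-4a in anti-CD3 cells and 5.16 higher in PBS cells, and the interleukin-2 receptor chain Il2ra was 3.93 higher with anti-CD3 than with PBS, each beyond the spread between replicates (limma, adjusted p at most 4.19e-11). Of 5 T cell genes, Cd8a and Cd3e did not pass the test with either treatment, while Cd3d fell by 0.64, Cd8b1 by 0.34 and Cd3g by 0.26 on the log2 scale with anti-CD3, and Cd3d fell by 0.24 with IFN-4a in PBS cells (adjusted p = 0.0102). With both treatments against PBS, Cd8a was called higher, by 0.20. The number of arrays limits the precision.

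Promoters of 4 members are shown because each holds the kappaB consensus, the DNA element that NF-kappaB dimers bind. It was searched on both strands as a fixed run of bases, and looser sites were not marked. In order, the run was G, G, G, A or G, any base, any base, C or T, C or T, C, C. The stretches below run over the 250 bases before the transcription start listed by RefSeq on GRCm38.p6, 5′ to 3′ on the gene's strand, with the consensus match in capitals.
Rel, chr11:23770970-23771219, minus strand: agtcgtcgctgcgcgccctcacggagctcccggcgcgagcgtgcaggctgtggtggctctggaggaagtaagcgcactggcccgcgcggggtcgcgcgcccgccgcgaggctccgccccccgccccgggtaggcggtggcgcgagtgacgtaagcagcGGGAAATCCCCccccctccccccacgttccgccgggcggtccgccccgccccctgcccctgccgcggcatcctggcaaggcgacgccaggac
Nfkbia, chr12:55492648-55492897, minus strand: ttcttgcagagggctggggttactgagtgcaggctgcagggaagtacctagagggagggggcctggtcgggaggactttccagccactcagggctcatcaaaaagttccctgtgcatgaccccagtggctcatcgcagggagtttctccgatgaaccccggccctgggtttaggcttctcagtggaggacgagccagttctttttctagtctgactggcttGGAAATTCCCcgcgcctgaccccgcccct
Nfkbie, chr17:45555450-45555699, plus strand: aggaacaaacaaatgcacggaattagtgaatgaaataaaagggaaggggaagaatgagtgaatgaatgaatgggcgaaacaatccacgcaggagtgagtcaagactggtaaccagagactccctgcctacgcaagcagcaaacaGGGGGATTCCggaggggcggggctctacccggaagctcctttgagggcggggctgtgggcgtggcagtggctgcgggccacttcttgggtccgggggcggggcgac
Tnfaip3, chr10:19015411-19015660, minus strand: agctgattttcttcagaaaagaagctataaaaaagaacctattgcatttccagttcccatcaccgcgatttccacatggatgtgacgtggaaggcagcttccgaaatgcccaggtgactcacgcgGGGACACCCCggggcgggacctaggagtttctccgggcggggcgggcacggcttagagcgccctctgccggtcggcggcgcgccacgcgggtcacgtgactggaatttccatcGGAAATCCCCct

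In Rel the capitals cover a pair of overlapping matches that begin 92 and 91 bases before the start. The match in Nfkbia begins 29 bases before the start, the one in Nfkbie 106 bases before it, and those in Tnfaip3 125 and 12 bases before the first of its 2 listed starts. The other listed start of Tnfaip3 had no match. The precursor gene Nfkb2 also held matches at all 3 of its listed starts, although the windows of its later starts overlap and share the match GGGACTTTCC. In all, 5 of the 7 members with a RefSeq promoter entry had a match, and Rela and Nfkbib had none. Counted by entry, as the share over all promoters is, 7 of the 10 entries had a match. Over a window of 300 bases around the start, 8.46% of 32851 RefSeq promoters held the consensus. The interferon-type motif GAAANNGAA, also searched on both strands, was found in 1 of the 7 members, Nfkbia, and in 1 of the 10 entries, against 8.56% of all promoters. No match overlapped one of the other motif, and a match describes letters and not binding. Relb and Nfkbiz were not in the promoter table.

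Anti-CD3 changed the family in both directions. Without interferon, 6 of the 9 genes rose and 2 fell against PBS, where 31.8% of all genes were called (13.8% higher and 18.0% lower). Rel, Rela, Relb and Nfkb2, all 4 subunits measured, rose, and so did the inhibitors Nfkbib and Nfkbiz. The inhibitors Nfkbia and Nfkbie fell. Tnfaip3 was not called. The median log2 difference was 0.33 over the 9 genes and -0.036 over all genes. In the presence of IFN-4a, the comparison of anti-CD3 with PBS called 5 of the 9 genes higher and 2 lower, against 27.7% of all genes (12.8% higher and 14.9% lower), with a median of 0.22 over the 9 genes and -0.035 over all genes. The shares over all genes, here and below, cover 22180 genes, of which 6710 stood at 8 or above on their 6 highest arrays. All 9 members did, so these are not shares among genes of like signal. Fitted alone, those brighter genes were called in a larger share than all genes in every comparison. A count of members above the share of all genes is therefore not read as particular to this family.

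IFN-4a raised subunits as well as inhibitors. In PBS cells 5 of the 9 rose and the other 4 were not called, against 12.6% of all genes called (4.25% higher and 8.37% lower). They were the subunits Rel, Relb and Nfkb2 and the inhibitors Nfkbia and Nfkbie. The counts rest in part on single arrays: 3 members were called without replicate 2 of PBS with IFN-4a, without PBS replicate 1 or without PBS replicate 3, and Rel, Relb and Nfkbie were called in each of these cases. In anti-CD3 cells IFN-4a called only Nfkbie, higher, where 3.48% of all genes were called (2.02% higher and 1.46% lower). The comparison of IFN-4a in PBS cells and that of anti-CD3 against PBS share the 3 PBS arrays, and the values of each member are therefore given side by side.

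**Figure D1:**
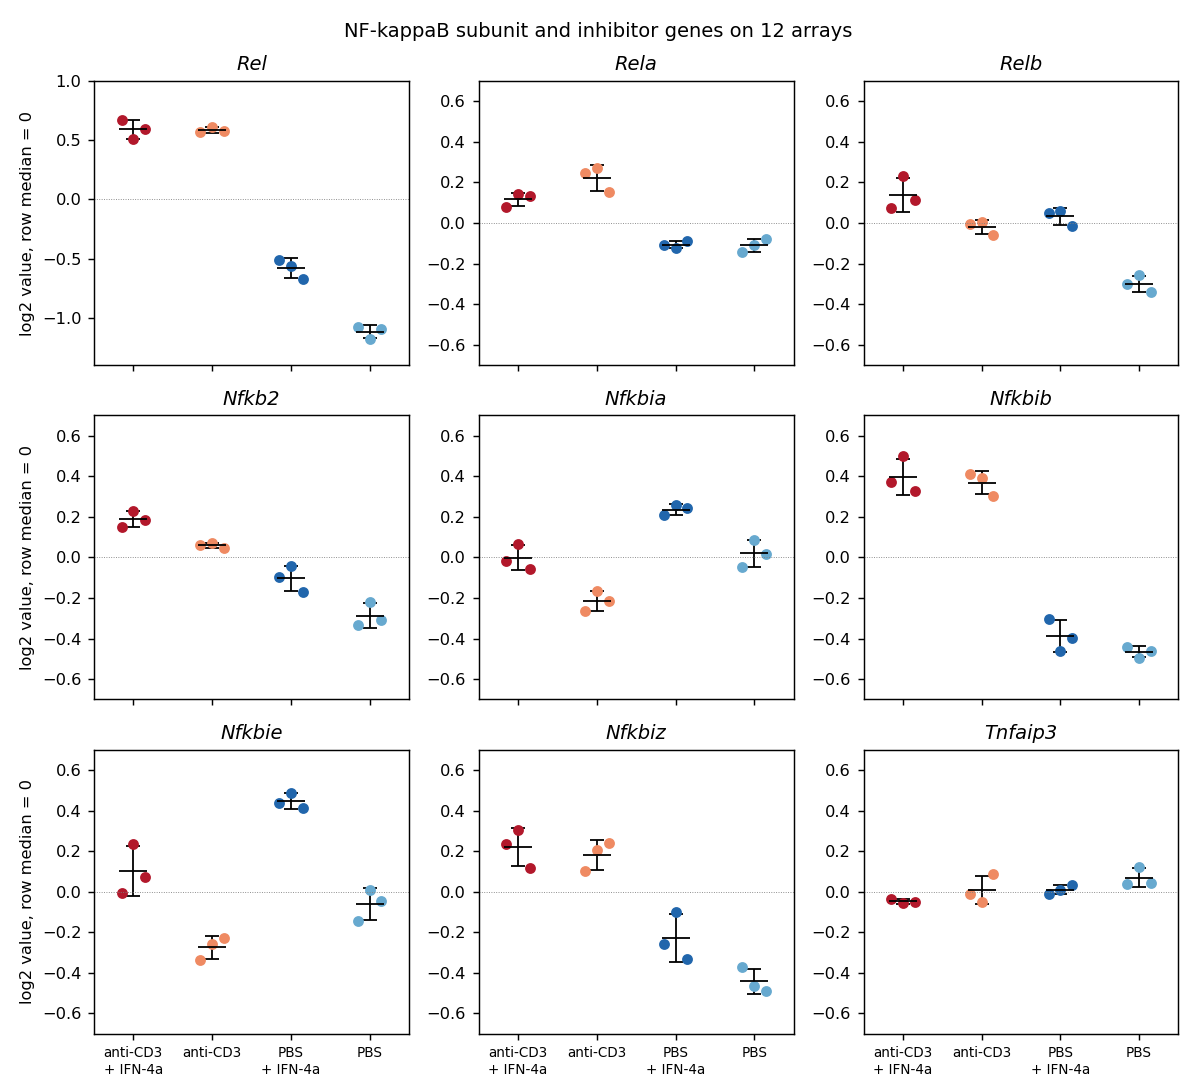
Each panel plots 1 gene, with the 3 arrays of each group as points and the mean with SD as a bar, on the centred log2 scale; the Rel panel has a wider axis than the others. Rel separates into 3 steps, with both anti-CD3 groups together at 0.51 to 0.67, PBS with IFN-4a between -0.68 and -0.51, and PBS between -1.18 and -1.08.

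Rel encodes c-Rel, the subunit that lymphocytes use for cytokine and growth genes after receptor engagement. Its values were 0.67, 0.51 and 0.60 with anti-CD3 and IFN-4a, 0.57, 0.62 and 0.58 with anti-CD3 alone, -0.51, -0.56 and -0.68 with PBS and IFN-4a, and -1.08, -1.18 and -1.10 with PBS. Every anti-CD3 array lay above every PBS array, and the PBS arrays with IFN-4a lay between them with no overlap. Anti-CD3 raised Rel by 1.17 on the log2 scale with IFN-4a present (SE 0.061, 2.26-fold, limma adjusted p = 3.57e-09). Without interferon the rise was 1.71 (SE 0.061, 3.27-fold, adjusted p = 8.81e-11), a change larger in size than that of 99.2% of all genes.

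In anti-CD3 cells the IFN-4a difference in Rel was 0.0041, with a 95% interval from -0.13 to 0.14 (adjusted p = 0.986). The means there were 0.59 ± 0.081 with IFN-4a and 0.59 ± 0.023 without it (SD, n = 3 each). In PBS cells IFN-4a raised Rel by 0.54 (SE 0.061, 1.45-fold, adjusted p = 5.17e-05), a size above that of 97.9% of all genes. The test of the difference itself, the IFN-4a change in anti-CD3 cells minus that in PBS cells, gave -0.53 (SE 0.086, 95% interval -0.72 to -0.35, adjusted p = 0.00656). Rel was the only one of the 9 genes to pass this test, which called 0.942% of all genes (0.298% higher and 0.645% lower). Fitted alone, the genes at 8 or above on their 6 highest arrays gave 398 called of 6710. With quantile normalization of the 12 arrays the Rel difference was -0.34 and missed the threshold (adjusted p = 0.0948). That step ran on the centred values and gave all arrays the same distribution of them. It turned the anti-CD3 change without interferon of the interferon-stimulated gene Isg15 from 0.56 to -0.37, and that of Ifit1 from 0.91 to -0.21. The Rel difference was smaller in size with that step, and why it was smaller was not tested.

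Rela encodes p65, the main transactivating subunit of the canonical pathway. Its values were 0.081, 0.14 and 0.13 with anti-CD3 and IFN-4a, 0.25, 0.27 and 0.15 with anti-CD3 alone, -0.11, -0.12 and -0.087 with PBS and IFN-4a, and -0.14, -0.11 and -0.081 with PBS. The 6 anti-CD3 arrays were high and the 6 PBS arrays low, and IFN-4a left the PBS arrays overlapping. Anti-CD3 raised Rela by 0.22 with IFN-4a (adjusted p = 0.00357) and by 0.33 without it (SE 0.051, 1.26-fold, adjusted p = 0.000128). The IFN-4a difference was -0.10 in anti-CD3 cells (adjusted p = 0.36) and 0.0041 in PBS cells (95% interval -0.11 to 0.11, adjusted p = 0.972), where its sign turned with quantile normalization.

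Relb encodes the partner of the processed Nfkb2 product in the alternative pathway. Its values were 0.073, 0.23 and 0.11 with anti-CD3 and IFN-4a, -0.0035, 0.0035 and -0.059 with anti-CD3 alone, 0.05, 0.062 and -0.013 with PBS and IFN-4a, and -0.30, -0.26 and -0.34 with PBS. PBS was the low group. Every array of the combined treatment lay above every array of either treatment alone, and the arrays of those single treatments overlapped. The rise over PBS was 0.33 with IFN-4a alone (SE 0.056, 1.26-fold, adjusted p = 0.00133), 0.28 with anti-CD3 alone (SE 0.056, 1.21-fold, adjusted p = 0.00116) and 0.44 with both (1.35-fold, adjusted p = 2.07e-05). Anti-CD3 alone against PBS with IFN-4a gave -0.053 in Relb (95% interval -0.17 to 0.067, adjusted p = 0.537). Once IFN-4a was present, anti-CD3 added 0.11 and was not called (95% interval -0.014 to 0.23, adjusted p = 0.209). In anti-CD3 cells the IFN-4a difference in Relb was 0.16 and was not called (95% interval 0.038 to 0.28, limma adjusted p = 0.169). The IFN-4a change in anti-CD3 cells minus that in PBS cells was -0.17, also not called (95% interval -0.34 to -0.0053, adjusted p = 0.439).

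Nfkb2 encodes the precursor of that pathway. Its values were 0.15, 0.23 and 0.18 with anti-CD3 and IFN-4a, 0.062, 0.071 and 0.044 with anti-CD3 alone, -0.098, -0.044 and -0.17 with PBS and IFN-4a, and -0.33, -0.22 and -0.31 with PBS. The order of the group means was anti-CD3 with IFN-4a, anti-CD3, PBS with IFN-4a and PBS, and no 2 groups overlapped. Anti-CD3 raised Nfkb2 by 0.29 with IFN-4a (adjusted p = 0.000735) and by 0.35 without it (SE 0.054, 1.27-fold, adjusted p = 0.000152). IFN-4a raised it by 0.18 in PBS cells (SE 0.054, adjusted p = 0.0414). That call was lost when any of 7 single arrays was left out (PBS replicates 1 and 3, PBS with IFN-4a replicates 1 and 2, anti-CD3 replicates 1 and 2, anti-CD3 with IFN-4a replicate 3), with adjusted p up to 0.158 and a difference of at least 0.15. It was lost as well with quantile normalization (adjusted p = 0.0899), with arrays centred on their medians (adjusted p = 0.0523) and when only the arrays of these groups were fitted (adjusted p = 0.101). In anti-CD3 cells the IFN-4a difference of 0.13 was not called (adjusted p = 0.27).

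Nfkbia encodes IkappaB alpha, the inhibitor that is degraded first and resynthesized as a feedback target. Its values were -0.018, 0.065 and -0.055 with anti-CD3 and IFN-4a, -0.26, -0.17 and -0.21 with anti-CD3 alone, 0.21, 0.26 and 0.24 with PBS and IFN-4a, and -0.045, 0.087 and 0.018 with PBS. The lowest group was anti-CD3 alone and the highest PBS with IFN-4a, and the combined treatment overlapped with PBS. Anti-CD3 lowered Nfkbia in both states, with log2 differences of -0.24 with IFN-4a (adjusted p = 0.00432) and -0.24 without it (SE 0.056, 1.18-fold lower, adjusted p = 0.00428). IFN-4a raised it by 0.22 in PBS cells (SE 0.056, 1.16-fold, adjusted p = 0.0215). Without PBS with IFN-4a replicate 2 or 3, or without PBS replicate 1 or 3, this adjusted p was 0.0516 to 0.0774.

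In anti-CD3 cells the IFN-4a difference in Nfkbia was 0.21 and narrowly missed the threshold (adjusted p = 0.0558), and it passed with quantile normalization (adjusted p = 0.0427), among brightly measured rows only (0.0139) and with the replicate number as a block (0.0406). The change of the IFN-4a effect with stimulation was -0.0032 (95% interval -0.17 to 0.17, adjusted p = 0.995). Both treatments together gave -0.023 against PBS (adjusted p = 0.814).

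Nfkbie encodes IkappaB epsilon, an inhibitor known for holding c-Rel and p65 dimers. Its values were -0.0064, 0.23 and 0.073 with anti-CD3 and IFN-4a, -0.34, -0.26 and -0.23 with anti-CD3 alone, 0.44, 0.49 and 0.41 with PBS and IFN-4a, and -0.14, 0.0064 and -0.044 with PBS. The group order was PBS with IFN-4a, anti-CD3 with IFN-4a, PBS and anti-CD3, the same order of extremes as for Nfkbia. IFN-4a raised Nfkbie in both states, by 0.38 in anti-CD3 cells (SE 0.067, 1.30-fold, adjusted p = 0.00564) and by 0.51 in PBS cells (SE 0.067, 1.42-fold, adjusted p = 0.000211). These 2 changes differed by -0.13, which was not called (95% interval -0.34 to 0.072, adjusted p = 0.684).

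Anti-CD3 lowered Nfkbie, with a log2 difference of -0.35 with IFN-4a (1.27-fold lower, adjusted p = 0.00108) and -0.21 without it (SE 0.067, 1.16-fold lower, adjusted p = 0.0253). The call without interferon was lost without anti-CD3 replicate 1 or 2 or without PBS replicate 2 or 3 (adjusted p 0.0537 to 0.0988, difference -0.22 to -0.18). Anti-CD3 alone lay 0.72 below PBS with IFN-4a in Nfkbie (1.65-fold lower, adjusted p = 1.06e-06). The combined treatment was 0.16 above PBS (adjusted p = 0.0866), and without replicate 1 of that group it was 0.21 above (adjusted p = 0.0354).

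Nfkbib encodes IkappaB beta, which binds the same dimers as IkappaB alpha but is known for slower turnover. Its values were 0.37, 0.50 and 0.33 with anti-CD3 and IFN-4a, 0.41, 0.39 and 0.30 with anti-CD3 alone, -0.30, -0.46 and -0.40 with PBS and IFN-4a, and -0.44, -0.49 and -0.46 with PBS. The anti-CD3 arrays and the PBS arrays formed separate blocks, and within each block the arrays with and without IFN-4a overlapped. Anti-CD3 raised Nfkbib by 0.79 with IFN-4a (1.72-fold, adjusted p = 2.26e-07) and by 0.83 without it (SE 0.061, 1.78-fold, adjusted p = 1.14e-07). The IFN-4a differences were 0.030 in anti-CD3 cells (95% interval -0.10 to 0.16, adjusted p = 0.883) and 0.078 in PBS cells (95% interval -0.055 to 0.21, adjusted p = 0.461).

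Nfkbiz encodes IkappaB zeta, an inducible nuclear protein that can also act as a coactivator of selected NF-kappaB targets. Its values were 0.24, 0.30 and 0.12 with anti-CD3 and IFN-4a, 0.10, 0.21 and 0.24 with anti-CD3 alone, -0.26, -0.10 and -0.33 with PBS and IFN-4a, and -0.37, -0.46 and -0.49 with PBS. The anti-CD3 arrays were again above all PBS arrays. Anti-CD3 raised Nfkbiz by 0.45 with IFN-4a (1.36-fold, adjusted p = 0.000218) and by 0.62 without it (SE 0.072, 1.54-fold, adjusted p = 9.06e-06). The IFN-4a difference in PBS cells was 0.21 and was not called (95% interval 0.058 to 0.37, adjusted p = 0.0714), although the groups did not overlap. It passed without PBS with IFN-4a replicate 3 (0.26, adjusted p = 0.0458). In anti-CD3 cells the difference was 0.036 (adjusted p = 0.876).

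Tnfaip3 encodes A20, a ubiquitin-editing enzyme that shuts down signalling to the IkappaB kinase. Its values were -0.034, -0.056 and -0.052 with anti-CD3 and IFN-4a, -0.0089, -0.05 and 0.086 with anti-CD3 alone, -0.0092, 0.0089 and 0.033 with PBS and IFN-4a, and 0.04, 0.12 and 0.042 with PBS. All 12 values lay between -0.056 and 0.12, the narrowest range among the 9 genes. No comparison between groups called Tnfaip3, and the largest difference was -0.12, between the combined treatment and PBS (95% interval -0.23 to -0.0032, adjusted p = 0.115). The 95% interval of its anti-CD3 difference without interferon was -0.17 to 0.053, and that of its IFN-4a difference in PBS cells was -0.17 to 0.055.

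**Figure D2:**
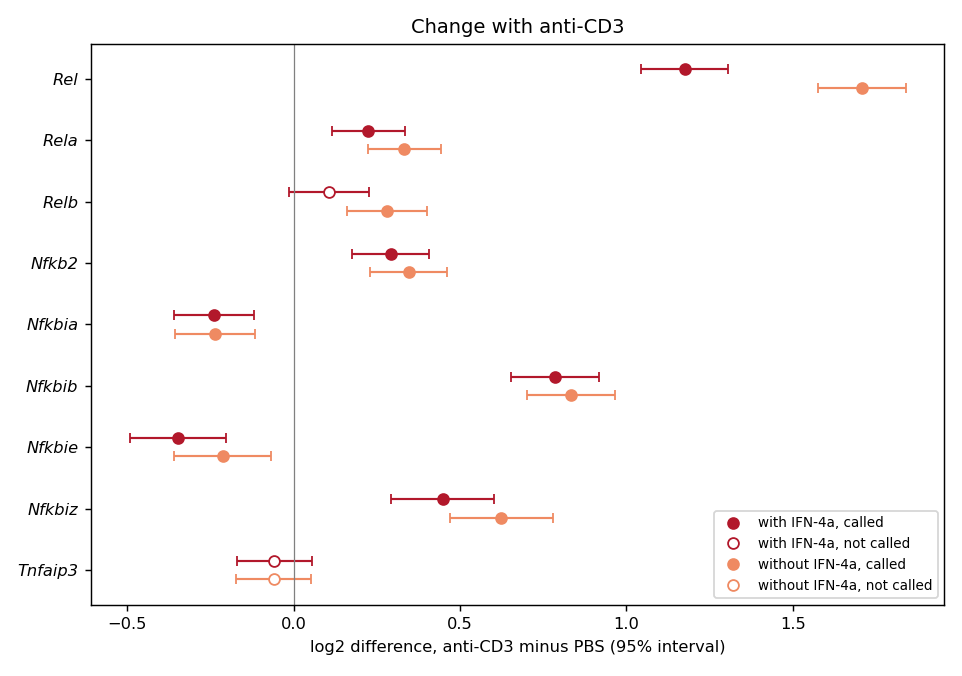
Points give the log2 difference of anti-CD3 minus PBS for each gene, with and without IFN-4a, bars are 95% intervals, and filled points were called. Rel stands apart at 1.17 with IFN-4a and 1.71 without it, Nfkbib and Nfkbiz follow, and Nfkbia and Nfkbie lie left of 0.

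**Figure D3:**
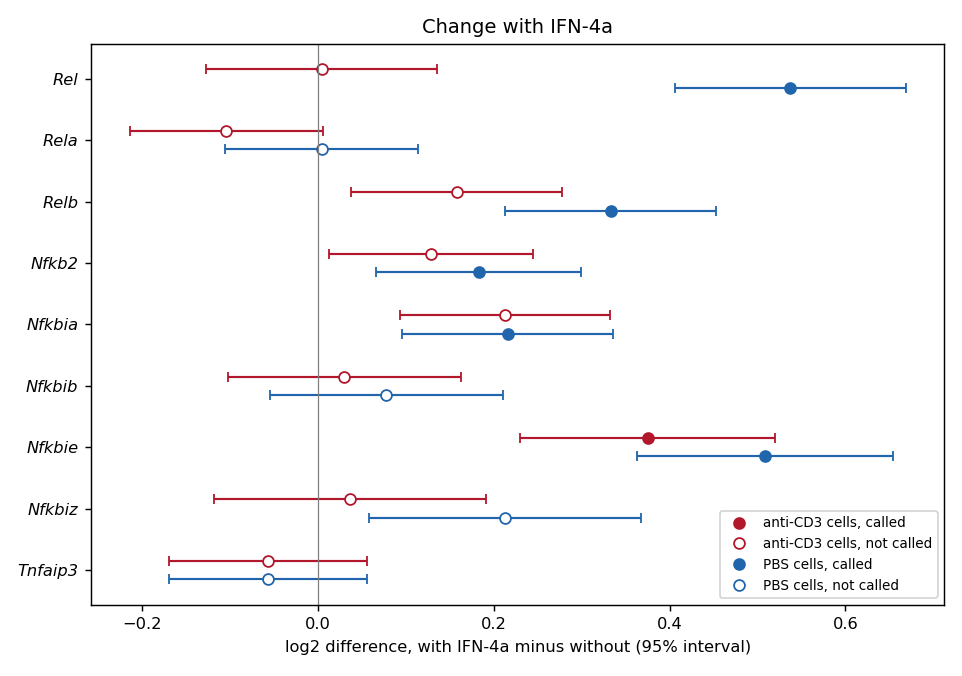
Points give the log2 difference of IFN-4a minus no interferon for each gene, in anti-CD3 and in PBS cells, bars are 95% intervals, and filled points were called. For Nfkbie both points lie right of 0, at 0.38 in anti-CD3 cells and 0.51 in PBS cells, while for Rel the value is 0.0041 in anti-CD3 cells and 0.54 in PBS cells.

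The order of the 4 groups was not the same for all members, and neighbouring groups could not always be separated. For Rel, Nfkb2, Nfkbib and Nfkbiz the 2 anti-CD3 groups held the top places and did not differ from each other by the test. For Rela the 2 anti-CD3 groups were also on top, with anti-CD3 alone above the combined treatment by less than the test could call, and PBS with IFN-4a and PBS did not differ. For Nfkbia the combined treatment stood between PBS above it and anti-CD3 below it and did not differ from either by the test. Its arrays overlapped with those of PBS and not with those of anti-CD3 (adjusted p = 0.0558).

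Groups did not overlap for 8 of the 9 members in anti-CD3 against PBS, where 41.2% of all genes showed no overlap, and for 7 of 9 with IFN-4a in PBS cells, where 30.8% of all genes did. In anti-CD3 cells 5 of 9 members showed no overlap between arrays with and without IFN-4a, against 21.1% of all genes. For the comparison of anti-CD3 and PBS in the presence of IFN-4a, the count was 9 of 9 against 38.3% of all genes. The combined treatment against PBS called 6 members, all higher (33.1% of all genes called, 14.1% higher and 19.0% lower), and 7 of 9 did not overlap (42.0% of all genes). Anti-CD3 against PBS with IFN-4a called 5 higher and 2 lower (31.2% of all genes called, 14.7% higher and 16.5% lower), and 7 of 9 did not overlap (43.5% of all genes).

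Likeness of pattern was measured by Pearson r over the 12 arrays, which share their 4 groups, as a description with no p. Among genes with 1 symbol, other than family members, predicted genes, receptor segments and small RNAs, the closest to Rel were Il2ra at 0.997, Ppa1 at 0.995 and Erap1 at 0.995. The closest to Nfkbie was the galectin Lgals8 at 0.984, followed by Rnf31, the catalytic subunit of the linear ubiquitin ligase complex, at 0.981 and Tbrg1 at 0.977. The closest to Nfkbib were Timm50 at 0.995, Snu13 at 0.994 and Dusp5 at 0.994.

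For Relb the closest were Naa20 at 0.975, Shfl at 0.974 and the proteasome activator subunit Psme1 at 0.972. For Nfkb2 they were Gmppb at 0.986, Fosl2 at 0.980 and the inhibitory receptor Lag3 at 0.977. Rela was followed by Ndufa12 at 0.990, Slc25a20 at 0.987 and Psmd6 at 0.981, Nfkbia by Osbpl5 at 0.974, Mvb12a at 0.965 and Arhgap30 at 0.964, and Nfkbiz by Psma3 at 0.976, Phf6 at 0.972 and Cul2 at 0.972. Tnfaip3 had the loosest matches, with Vmn2r44 at 0.931, Sqor at 0.917 and Akap7 at 0.914.

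Upstream of the family, anti-CD3 called genes in both directions. Of 20 measured genes of kinases, adaptors and ubiquitin ligases that lead to NF-kappaB (24 listed), 3 rose and 11 fell with anti-CD3 against PBS, with a median of -0.21, and falls also outnumbered rises over all genes (18.0% lower and 13.8% higher). The paracaspase gene Malt1, whose product links the T cell receptor to the IkappaB kinase, rose by 0.78 (adjusted p = 7.81e-07), and Map3k7, which encodes the kinase TAK1, rose by 0.37 (adjusted p = 5.89e-05). Ikbkg, the regulatory subunit NEMO, fell by 0.48 (adjusted p = 5.22e-05), and Ikbke, a related kinase of interferon induction, fell by 0.68 (adjusted p = 8.44e-07). With IFN-4a present, 2 rose and 9 fell (all genes 12.8% higher and 14.9% lower), and 7 in all were called without anti-CD3 with IFN-4a replicate 1 or without PBS with IFN-4a replicate 3.

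IFN-4a in PBS cells called 2 of the 20 upstream genes, both higher, with a median of -0.047. Of all genes 12.6% were called (4.25% higher and 8.37% lower). The upstream genes called were Rnf31, by 0.53 (adjusted p = 0.000141), and Tbk1, a kinase of interferon induction, by 0.22 (adjusted p = 0.0137). Birc2 at 0.21 (adjusted p = 0.0988) and Tab1 at -0.16 (adjusted p = 0.196) were not called. Without PBS with IFN-4a replicate 2, Tbk1 was not called either (adjusted p = 0.0579), and without replicate 3 of that group 4 upstream genes were called. In anti-CD3 cells IFN-4a raised 1 of the 20, Rnf31, by 0.27 (adjusted p = 0.0402). This call was lost without any 1 array other than replicate 1 of anti-CD3 with IFN-4a, replicate 3 of PBS with IFN-4a or replicate 1 of PBS (adjusted p up to 0.154). It was lost as well when only the groups compared were fitted (adjusted p = 0.114).

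Other inhibitors and terminators moved both ways with anti-CD3: of 14 measured (15 listed), 6 rose and 5 fell, with a median of 0.048, where 31.8% of all genes were called. With IFN-4a present 4 rose and 6 fell, where 27.7% of all genes were called. Nfkbid, an atypical nuclear inhibitor, rose by 2.08 (4.22-fold, adjusted p = 7.7e-12). Of the A20-binding partners, Tnip2 rose by 1.21 (adjusted p = 2.43e-09) and Tnip3 by 0.54 (adjusted p = 0.00307), while Tnip1 fell by 0.69 (adjusted p = 1.05e-06). Of the same 14 genes, IFN-4a in PBS cells raised 3 and lowered 1 (all genes 4.25% higher and 8.37% lower). N4bp1 rose by 0.56 (adjusted p = 0.000467) and Pdlim2, a ligase that turns over nuclear p65, by 0.32 (adjusted p = 0.018), and Rnf11 fell by 0.20 (adjusted p = 0.0442). The count of 4 was 2 without PBS with IFN-4a replicate 2 or 3 or without PBS replicate 1 or 2, where Pdlim2 and Rnf11 were not called. Rnf11 was also not called without PBS with IFN-4a replicate 1, PBS replicate 3, anti-CD3 replicate 1 or anti-CD3 with IFN-4a replicate 1 or 3, nor with quantile normalization (adjusted p = 0.0516), array weights (0.0513) or the replicate block (0.0598). In anti-CD3 cells IFN-4a raised 1 of the 14, N4bp1, by 0.36 (adjusted p = 0.0267, 3.48% of all genes called), and this call was lost without anti-CD3 with IFN-4a replicate 1 or 3 or without anti-CD3 replicate 1 or 2 (adjusted p up to 0.128). It was lost as well when only the groups compared were fitted (adjusted p = 0.0880).

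Bcl3, an atypical inhibitor that joins nuclear dimers as a coregulator, rose with IFN-4a in PBS cells by 0.67 (SE 0.072, 1.60-fold, adjusted p = 2.83e-05). In anti-CD3 cells IFN-4a gave -0.064 (adjusted p = 0.75). Anti-CD3 lowered Bcl3 with interferon present, with a log2 difference of -0.42 (adjusted p = 0.000367), and raised it by 0.32 without interferon (adjusted p = 0.00331). The test of the difference gave -0.74 (SE 0.10, adjusted p = 0.00175), which made Bcl3 the only one of the 14 genes called there, and it was called with quantile normalization too.

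Of 27 measured targets of NF-kappaB known from lymphocytes (29 listed), anti-CD3 called 19 higher and 4 lower, with a median of 0.66, where 13.8% of all genes were higher and 18.0% lower. The 4 lower were Ltb, Traf1, Ccr7 and Xiap, names chosen after their values were seen. The largest were the chemokine genes Ccl3, at 6.91 (adjusted p = 2.67e-11), and Ccl4, at 4.76 (adjusted p = 1.6e-11), followed by the costimulatory receptor Tnfrsf9, at 4.32 (adjusted p = 1.23e-12), and the cytokine Tnf, at 4.31 (adjusted p = 2.73e-13). With IFN-4a present 19 were higher and 5 lower, with a median of 0.62 (all genes 12.8% higher and 14.9% lower). IFN-4a in PBS cells raised 9 of the 27 and lowered 1, with a median of 0.17 (all genes 4.25% higher and 8.37% lower), and 5 in all were called without PBS replicate 3 and 6 without PBS with IFN-4a replicate 1. Fitting only the groups compared also called 6.

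The target genes most changed by IFN-4a in PBS cells were the activation marker Cd69, at 1.16 (adjusted p = 1.62e-06), Il2ra, at 0.98 (adjusted p = 0.000212), the adhesion molecule Icam1, at 0.90 (adjusted p = 2.47e-06), and the transcription factor Irf1, at 0.70 (adjusted p = 7.4e-07). Irf1 is also a direct target of interferon signalling. In anti-CD3 cells 2 of the 27 were called, both higher (3.48% of all genes called): the apoptosis regulator Cflar, at 0.36 (adjusted p = 0.00657), and the early-response gene Ier3, at 0.27 (adjusted p = 0.0245); both names were chosen after their values were seen. The call of Ier3 was lost without anti-CD3 with IFN-4a replicate 1 or 3 or without anti-CD3 replicate 1 or 2 (adjusted p up to 0.107). It was lost as well when only the groups compared were fitted (adjusted p = 0.0711).

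In the test of whether the IFN-4a change depended on stimulation, 4 of the 27 targets were lower and 1 higher, where 0.645% of all genes were lower and 0.298% higher. The differences were -0.97 for Il2ra (adjusted p = 0.0213), -0.85 for Cd69 (adjusted p = 0.00507), -0.77 for Irf1 (adjusted p = 8.06e-05) and -0.69 for Icam1 (adjusted p = 0.00512), and 0.79 for Ier3 (adjusted p = 0.000189). With quantile normalization Il2ra gave -0.40 (adjusted p = 0.413) and Cd69 -0.44 (adjusted p = 0.0901), so that 3 remained called, Irf1, Icam1 and Ier3. The call of Il2ra was also lost without any 1 array other than replicate 1 of anti-CD3 with IFN-4a, replicate 3 of PBS with IFN-4a or replicate 1 of PBS (adjusted p up to 0.0682). Quantile normalization also ended the call of Il2ra with IFN-4a in PBS cells (0.20, adjusted p = 0.306).

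**Figure D4:**
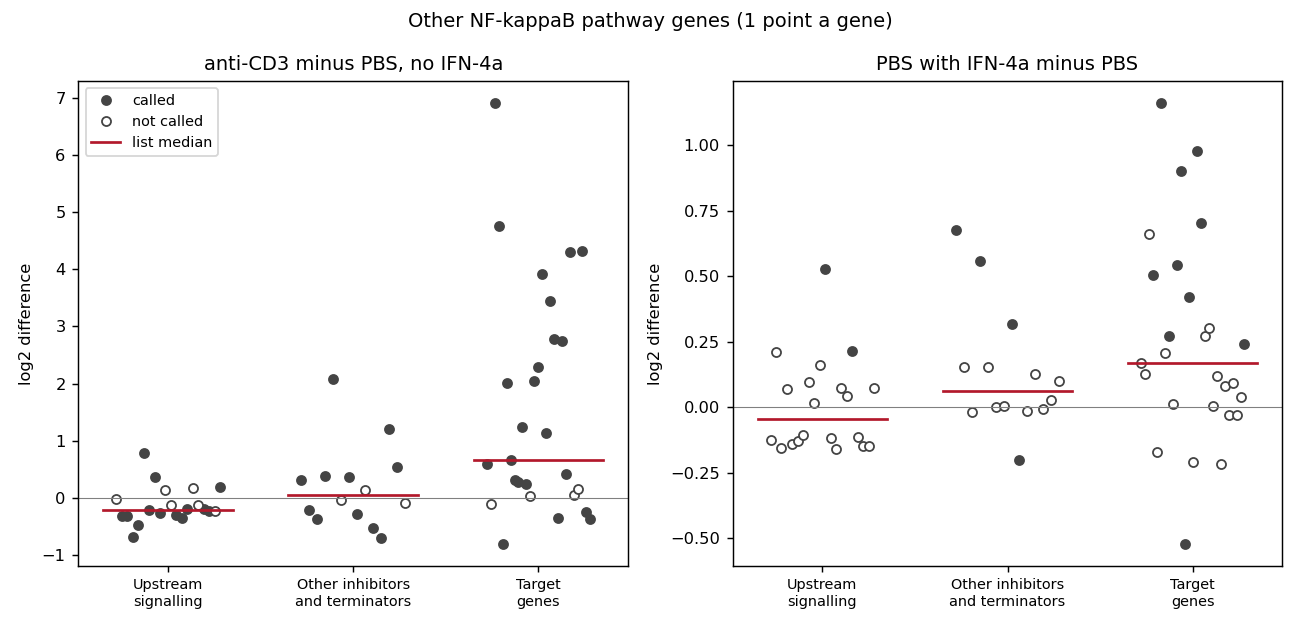
Each point is 1 measured gene of the upstream list, the other inhibitors or the targets, placed by its log2 difference, and the red line marks the list's median. With anti-CD3 the medians lie at -0.21 for upstream genes, 0.048 for other inhibitors and 0.66 for targets.

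Markers of other cells that the enrichment could have left moved with anti-CD3 for some genes. Of 5 measured B cell markers, 1 was lower with anti-CD3 than with PBS (Cd79b, -0.69) and 2 were lower in the presence of IFN-4a (Cd79b, -0.43, and Cd79a, -0.21). The mean of the B cell list over its genes was -0.12 to -0.032 on the anti-CD3 arrays and 0.034 to 0.088 on the PBS arrays. Of 4 CD4 T cell markers, Cd40lg, which activated T cells also express, was higher by 1.04, and of 8 markers of monocytes, macrophages and dendritic cells, Itgax was higher by 0.56. The means of these lists were -0.026 to 0.098 with anti-CD3 and -0.19 to -0.11 with PBS for CD4 T cells, and -0.098 to 0.079 with anti-CD3 and -0.042 to 0.0027 with PBS for the myeloid list. The list means hide members that did not follow. With anti-CD3 against PBS, Cd4 (-0.12), Zbtb7b (-0.15) and Foxp3 (0.009) were not called. Nor were the B cell markers Cd79a (-0.054), Pax5 (-0.055), Ms4a1 (0.077) and Cd22 (0.063). The myeloid list had a median of 0.022 and a lowest difference of -0.25. Of the 2 NK cell, 5 granulocyte and 2 erythroid or platelet markers measured, 0 were called by limma in anti-CD3 against PBS (0 at an unadjusted p under 0.05).

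With IFN-4a, 0 of the 26 markers of other cells were called by limma in anti-CD3 cells (2 at an unadjusted p under 0.05) and 0 in PBS cells (5 at an unadjusted p under 0.05). By the decimal steps, 0 of these 26 markers stood at 8 or above on the 6 highest arrays of its row, whereas all 5 T cell genes and all 9 family members did. How far below that level the markers stood cannot be read from centred values. Their part in the changes of Rel and the other family members was not tested, and in RNA of whole samples fewer cells of a type and less RNA per cell cannot be told apart.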

How the data were processed

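RNA was measured on 12 Affymetrix arrays, from RNeasy Mini extracts and the biotin labelling of a WT Plus kit, per the labels' protocols. The authors deposited log values, taken here as log2, after centring each of 33793 rows on its median over the arrays (largest absolute row median 5e-07), running from -4.55 to 3.31. Not given in the sources used here are the log base, the summarization and the normalization; with a natural log every fold would be larger.

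The probe table gave 1 symbol to 23521 rows, and each of the 22180 genes took the mean of its rows. Groups, taken from the titles, entered limma 3.58.1 (R 4.3.3) as 4 means fitted over 12 arrays. Tests were moderated and two-sided, with 8 residual degrees of freedom and 5.18 from the prior, and Benjamini-Hochberg adjustment ran over 22180 genes within each of 7 comparisons. Genes were called at an adjusted p under 0.05. The code was tested on simulated data. Genes were bright where decimal steps put their row at 8 or above on the 6 highest arrays. Alternatives were quantile normalization of the centred values, median centring, array weights, robust spread, bright rows, the row with the highest mean, only the groups compared, a replicate block and leaving out each array.

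The family members and gene lists were chosen with earlier results of these data known. Named were all members, the 4 genes of each list changed most by anti-CD3 and by IFN-4a in PBS cells, check genes, markers, and the 3 genes closest to each member by Pearson r, leaving out predicted genes, receptor segments and small RNAs.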

Additional observations from a re-analysis of the deposited data

Results flagged for a closer look

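Rel, which encodes c-Rel, is singled out because its IFN-4a change differed between stimulated and mock-treated cells by a test of that difference. The IFN-4a change in anti-CD3 cells minus that in PBS cells was -0.53 on the log2 scale (SE 0.086, limma adjusted p = 0.00656). Group means were 0.59 ± 0.081 with anti-CD3 and IFN-4a, 0.59 ± 0.023 with anti-CD3, -0.58 ± 0.085 with PBS and IFN-4a and -1.12 ± 0.056 with PBS (SD, n = 3 each). Over the alternatives the difference ran from -0.58 to -0.34, and it lost its call only with quantile normalization. Groups of 3 arrays are too small for a check of single arrays that stand apart.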

How the results depend on the processing

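Across 63 results (9 genes in 7 comparisons) and their 1251 alternatives, 1185 kept direction and side of the threshold, 25 lost a call, 9 gained one and 32 turned sign; every value that turned sign was uncalled. The cause of these moves was not tested. All anti-CD3 calls of Rel, Rela, Nfkb2, Nfkbia, Nfkbib and Nfkbiz against PBS, with and without IFN-4a, were kept in all alternatives, as were the IFN-4a calls of Rel, Relb and Nfkbie in PBS cells.

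With quantile normalization, 2 members were called for IFN-4a in anti-CD3 cells and 0 in the interaction, where Rel had an adjusted p of 0.0948 (limma; all genes 123 against 209). Among bright rows only, 2 members were called for IFN-4a in anti-CD3 cells. The interaction there called 398 of 6710 bright genes, against 209 of 22180 with all rows. Array weights gave 1402 genes for IFN-4a in anti-CD3 cells against 771. Leaving out single arrays gave 3 to 5 members and 1753 to 2976 genes for IFN-4a in PBS cells (2798 with all arrays, lowest without PBS with IFN-4a replicate 2), 489 to 763 genes in anti-CD3 cells (lowest without anti-CD3 replicate 2, and 498 without anti-CD3 with IFN-4a replicate 3) and 137 to 207 in the interaction (lowest without PBS with IFN-4a replicate 2).

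Signs turned for Rela with IFN-4a in PBS cells (quantile -0.018, median centring -0.0038, single arrays left out -0.011 to 0.019). For IFN-4a in anti-CD3 cells they turned for Rel (median centring -0.0043, single arrays -0.035 to 0.046), Nfkbib (array weights -0.012, single arrays -0.020 to 0.066) and Nfkbiz (-0.0053 to 0.087). In the interaction they turned for Nfkbia (-0.037 to 0.029) and Tnfaip3 (quantile -0.0079, single arrays -0.029 to 0.039). They turned for Nfkbia with both treatments against PBS (-0.057 to 0.011), and for Tnfaip3 in anti-CD3 against PBS with IFN-4a (quantile 0.027, median centring 0.026, single arrays -0.040 to 0.028). In that last comparison Nfkb2 lost its call in 6 alternatives. Among bright rows, Nfkbiz gained a call for IFN-4a in PBS cells (adjusted p = 0.0265), and for both treatments against PBS so did Nfkbie (0.0342) and Tnfaip3 (0.0438).

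Same-numbered arrays deviated from their group means with correlations of -0.0718 to 0.267 (median 0.0674, 6 of 18 pairs over 0.1). For different-numbered arrays they were -0.251 to 0.185 (median -0.0418, 5 of 36 pairs over 0.1). The labels give only a number, so the main fit took no pairing, and these values do not settle whether the numbers pair the samples. The block called 882 genes for IFN-4a in anti-CD3 cells against 771. With the replicate number as a block, 2 members were called for IFN-4a in anti-CD3 cells (Nfkbia joined), Nfkbie was called for both treatments against PBS (adjusted p = 0.0482), and no other member's call changed; of the genes named from the lists, the block ended the call of Rnf11 for IFN-4a in PBS cells. The interaction uses all 4 groups, so that the fit with only the groups compared does not apply to it. Signal over background could not be read from centred values.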
